A study of Mus musculus with 6 samples.

Results

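Replacement histone variant genes were examined in mouse embryonic stem cells (mESCs) that overexpressed Rbbp4 or Rbbp7. They were taken by name, as genes of replication-independent histone variants with polyadenylated mRNAs, and they comprised 10 of the 55401 genes in each table. H2afz and H2afv encode H2A.Z, H2afx encodes H2A.X, H2afy encodes macroH2A1 and H2afj encodes H2A.J. H3f3a and H3f3b encode H3.3, Cenpa encodes the centromeric H3 variant CENP-A, and H1f0 and H1fx encode the linker histones H1.0 and H1.X. All 10 passed the filter on low values, a mean of at least 0.5 TPM (a length-scaled share of the transcripts in a library), which 14156 genes passed.

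Most nucleosomes are built in S phase from replication-dependent histones, whose mRNAs end in a stem-loop and carry no poly(A) tail. Replacement variants come from genes that are mostly polyadenylated and are expressed throughout the cell cycle, and some of them enter chromatin through their own chaperones and remodelers. RBBP4 and RBBP7 are WD40-repeat proteins that bind histones H3 and H4 and belong to several chromatin complexes, and related proteins take part in loading CENP-A.

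Poly(A) RNA-seq was performed on 46C mESCs, a mouse stem cell line, in 3 groups of 2 libraries each. By the labels, control cells stably expressed the biotin tag alone, Rbbp4 OE cells expressed biotin-tagged Rbbp4, and Rbbp7 OE cells expressed biotin-tagged Rbbp7, all without further treatment. By the study's methods, all 3 groups also carried the biotin ligase BirA from a lentivirus selected with blasticidin, and a pSin-Flag-Avitag lentiviral vector selected with puromycin, so they were infected populations and no clones were described. The promoter of the transgenes was not given in the sources used here. Both inhibitors Chir99021 and PD0325901, with LIF and serum, were in the medium of every group. The labels do not say whether the 2 libraries of a group came from separate cultures, so p-values measure only the spread between these samples, which may be technical.

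The overexpressed genes were read first. Rbbp4 stood at 146 and 147 TPM in control, 270 and 271 TPM with Rbbp4 OE and 144 and 143 TPM with Rbbp7 OE. Rbbp7 stood at 239 and 237 TPM in control, 208 and 218 TPM with Rbbp4 OE and 725 and 748 TPM with Rbbp7 OE. Both genes were highest in the libraries labelled with them. Summed over 8 stem cell markers, the level was 7879 to 8107 TPM in control, 8508 to 8799 TPM with Rbbp4 OE and 8510 to 8743 TPM with Rbbp7 OE, most of it from Dppa5a. In Rbbp4 OE, 4 of these markers had positive and 4 negative log2 fold changes, with a median of -0.11, and of them Pou5f1 rose and Nanog fell. Over 4 neural genes the sum was 104 to 105 TPM in control, 120 to 122 TPM with Rbbp4 OE and 94.9 to 96.5 TPM with Rbbp7 OE, almost all of it Tubb3. For 4 trophoblast genes, control, Rbbp4 OE and Rbbp7 OE summed to 11.7 to 12.1, 10.9 to 12.2 and 14.1 to 15.2 TPM. Of the 3 tested in Rbbp7 OE, 1 had a positive and 2 had a negative log2 fold change. In the same order of groups, 3 mesoderm genes summed to 2.22 to 3.52, 3.56 to 4.11 and 4.84 to 5.44 TPM. The sums for 4 primitive endoderm genes were 0.75 to 1.09, 0.41 to 1.03 and 0.92 to 2.81 TPM. Those for 4 genes of 2-cell-like cells were 1.57 to 2.23, 0.42 to 0.75 and 0.76 to 0.78 TPM. Over 4 fibroblast genes the sum was 4.44 to 5.59 TPM in control, 9.07 to 11.7 TPM with Rbbp4 OE and 8.69 to 9.33 TPM with Rbbp7 OE, mostly from Thy1, which rose in Rbbp4 OE (limma adjusted p = 0.0192). The collagen genes were near 0: Col1a1 stood at 0.29 and 0.46 TPM in control, 0.20 and 0.42 TPM with Rbbp4 OE and 0.81 and 0.86 TPM with Rbbp7 OE, Col1a2 was at most 0.11 TPM in control and Rbbp4 OE and 1.3 and 0.79 TPM with Rbbp7 OE, and Dcn was listed at 0 in 4 libraries. The part of these differences in the results below was not tested. In bulk RNA, fewer cells of a type and less RNA per cell cannot be told apart.

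H2afz was by far the most abundant of the replacement variant genes, with a mean of 2011 TPM over the 6 libraries, which placed it 74th among the tested genes. H2afx (626 TPM), H3f3a (558 TPM) and H3f3b (487 TPM) followed. A middle tier held Cenpa (214 TPM), H2afy (212 TPM), H2afj (170 TPM) and H2afv (119 TPM), and the linker histone genes H1f0 (58.0 TPM) and H1fx (56.6 TPM) were lowest, H1fx still ranking 2411th. Among neighbours in this order, the ranges over libraries overlapped for H2afx and H3f3a, for H3f3a and H3f3b, for Cenpa and H2afy, and for H1f0 and H1fx. Within each library, however, H2afx stayed above H3f3a and H3f3a above H3f3b in 6 of 6, whereas Cenpa exceeded H2afy in 3 of 6 and H1f0 exceeded H1fx in 3 of 6. The 10 genes summed to 4598 to 4716 TPM in control, 4311 to 4441 TPM with Rbbp4 OE and 4417 to 4586 TPM with Rbbp7 OE, or 0.431% to 0.472% of all TPM.

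**Figure D1:**
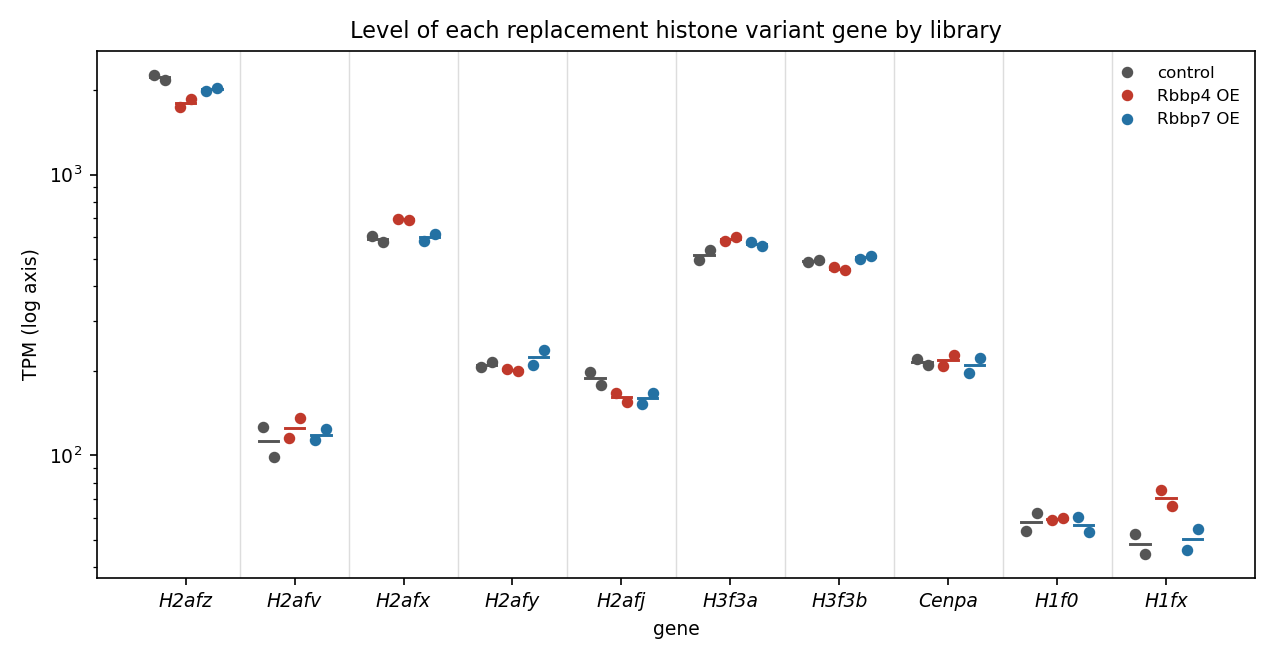
TPM (log axis) of the 10 replacement histone variant genes in each library; points are the 2 libraries of a group and horizontal lines their mean. H2afz averages 2011 TPM and is lowest in Rbbp4 OE, while H2afx and H1fx are highest in Rbbp4 OE.

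Rbbp4 OE was then compared with control, with limma on log2(TPM + 1) over all tested genes. H2afz fell, and H2afx and H1fx rose, at a Benjamini-Hochberg adjusted p under 0.05. These were 3 of the 10 genes, where 11.4% of all tested genes were called, 3.29% as higher and 8.07% as lower. Under the stricter limits that the study set, 0.01 for the adjusted p and 2 for the fold, limma called 0 of the 10 and 0.516% of all tested genes. The median log2 fold change was 0.03 over the 10 genes and -0.08 over all tested genes. Libraries did not overlap between the groups for 7 of the 10 genes, against 57.9% of all tested genes. Of these, 3 were higher and 4 lower, against 20.8% and 37.1% of tested genes.

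In Rbbp7 OE against control, none of the 10 genes was called by limma at an adjusted p under 0.05, where 0.487% of all tested genes were called. At an unadjusted p under 0.05 there were 2, H2afz and H2afj, both lower, and over all tested genes 15.4% had such a p. Libraries did not overlap for 4 of the 10 genes, against 44.5% of tested genes. Between Rbbp4 OE and Rbbp7 OE, none of the 10 was called by limma either, against 0.304% of tested genes, and 4 had an unadjusted p under 0.05, against 19.0% of tested genes. Their libraries did not overlap for 6 of the 10, against 54.7% of tested genes. Both comparisons with control used the same 2 control libraries, so they are not independent of each other.

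**Figure D2:**
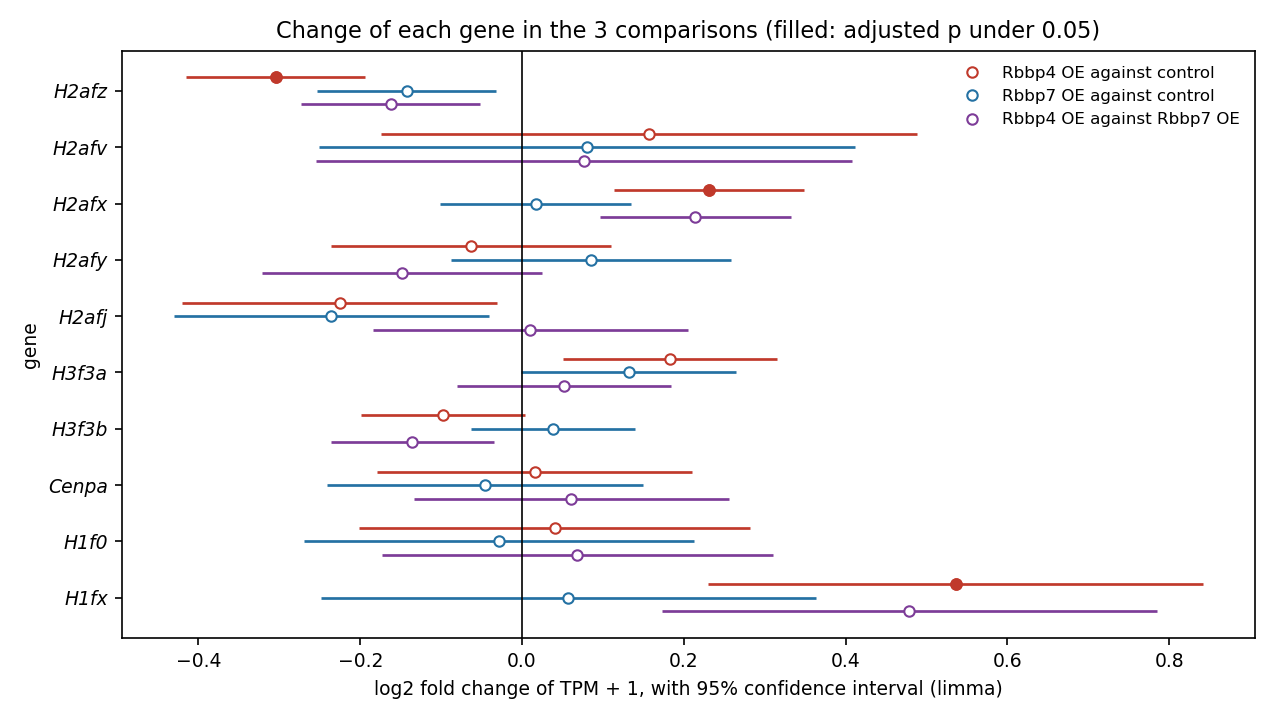
Log2 fold change of TPM + 1 (horizontal axis) with its 95% confidence interval from limma for each gene in the 3 comparisons; filled points have an adjusted p under 0.05. H2afz, H2afx and H1fx are filled in Rbbp4 OE against control (-0.30, 0.23 and 0.54), and no gene is filled in the other comparisons.

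The genes of H2A.Z are described first. H2A.Z replaces H2A in the nucleosomes that flank transcription start sites, and its proteins H2A.Z.1 and H2A.Z.2 come from H2afz (ENSMUSG00000037894.13, GRCm38 chromosome 3, 137864487 to 137866922, plus strand) and H2afv (ENSMUSG00000041126.16, chromosome 11, 6427229 to 6444443, minus strand). Their coding sequences, from the GENCODE M21 transcripts on GRCm38, are each 387 bases long and differ at 81 bases (79.1% identity). Of the 74 codons that differ, 71 are synonymous and 3 change a residue. The first 60 coding bases are shown because they bear on whether reads of the pair can be assigned, with the 13 differing bases in capitals.
H2afz: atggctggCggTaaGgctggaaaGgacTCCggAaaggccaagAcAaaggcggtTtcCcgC
H2afv: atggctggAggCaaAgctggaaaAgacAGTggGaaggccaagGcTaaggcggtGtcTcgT
The longest run shared by the coding sequences was 14 bases, so longer reads from the 2 genes differ across the coding region.

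H2afz stood at 2268 and 2176 TPM in control, 1744 and 1854 TPM with Rbbp4 OE and 1985 and 2041 TPM with Rbbp7 OE. Control libraries were highest, Rbbp4 OE libraries lowest, and no groups overlapped. In Rbbp4 OE the level was 0.81 of control, a log2 change of -0.30 (SE 0.045, 95% confidence interval -0.42 to -0.19, limma adjusted p = 0.0165). In Rbbp7 OE the log2 fold change was -0.14 (limma adjusted p = 0.23), and between Rbbp4 OE and Rbbp7 OE it was -0.16 (limma adjusted p = 0.163), so the difference between the overexpression lines did not pass the test. After median-of-ratios scaling, the log2 fold change in Rbbp4 OE was -0.20 and was no longer called (adjusted p = 0.141), and the difference between the overexpression lines was -0.07 (adjusted p = 0.676). Its 4 near-identical pseudogenes held 0.619% to 1.14% of the summed TPM.

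H2afv was a minor contributor, with 126 and 98.9 TPM in control, 115 and 135 TPM with Rbbp4 OE and 113 and 124 TPM with Rbbp7 OE. The groups overlapped, and the control libraries lay farther apart than the group means. The log2 values against control, 0.16 for Rbbp4 OE (SE 0.14, limma adjusted p = 0.489) and 0.08 for Rbbp7 OE (limma adjusted p = 0.833), did not pass the test. The H2afz share of the H2A.Z pair was 94.7% and 95.7% in control, 93.8% and 93.2% with Rbbp4 OE and 94.6% and 94.3% with Rbbp7 OE. Thus H2afz supplied nearly all H2A.Z transcripts in every library, and the pair summed to 2335 TPM ± 84.3 (SD, n = 2) in control, 1925 TPM ± 92.1 with Rbbp4 OE and 2131 TPM ± 47.5 with Rbbp7 OE.

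H2A.X carries the C-terminal serine that is phosphorylated around DNA double-strand breaks. H2afx (ENSMUSG00000049932.3, chromosome 9, 44334694 to 44336077, plus strand) is known to yield a polyadenylated mRNA as well as one that ends in the histone stem-loop, and it was the only gene of the set with a stem-loop match. The last 45 coding bases (388 to 432) are shown with the codon of this serine in capitals, and the stem-loop with its paired stem in capitals.
H2afx coding end: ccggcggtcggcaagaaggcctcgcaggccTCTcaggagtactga
H2afx stem-loop: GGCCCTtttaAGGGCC
The stem-loop lies at chr9:44335240-44335255 on the plus strand, its first base 47 bases after the stop codon, with 6 base pairs and a loop of 4 bases. It was found by searching the sense strand of 3′ UTRs for GGNNNTNNTNANNNCC with 6 pairing bases on either side. Only genes with a 3′ UTR of 16 bases or more were counted. Such a match was present in 87 of 20597 protein-coding genes (0.422%), in 45 of 52 replication-dependent histone genes (86.5%) and, among the 10 replacement variant genes, in H2afx. The 52 were picked by gene name without leaving out testis genes, unlike the set of replication-dependent histones summed further below.

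H2afx stood at 604 and 576 TPM in control, 695 and 690 TPM with Rbbp4 OE and 580 and 614 TPM with Rbbp7 OE. Both Rbbp4 OE libraries lay above all others, while control and Rbbp7 OE overlapped. In Rbbp4 OE it rose 1.17-fold over control (log2 fold change 0.23, SE 0.048, 95% confidence interval 0.11 to 0.35, limma adjusted p = 0.0358), whereas in Rbbp7 OE its log2 fold change was 0.02 (limma adjusted p = 0.914). Between Rbbp4 OE and Rbbp7 OE, the log2 difference of 0.21 did not pass the test (limma adjusted p = 0.125). H2afx has a GC-rich transcript (62.3%), and after correction for GC content and length, an alternative added once the data had been seen, the Rbbp4 OE value was 0.05 and was not called (adjusted p = 0.543), and the difference from Rbbp7 OE was 0.14 (adjusted p = 0.243). Its coding sequence resembles canonical H2A genes closely, so some reads may have been divided among them.

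The balance between H2afz and H2afx, which was not among the planned measures, was also described. In Rbbp4 OE it joins the gene called lower with a gene called higher, so it restates those calls and adds no separate support. H2afz exceeded H2afx 3.76- and 3.78-fold in the control libraries, 2.51- and 2.69-fold in Rbbp4 OE and 3.42- and 3.32-fold in Rbbp7 OE. Over the summed TPM of the H2A-type genes, H2afz held 66.6% and 67.1% in control, 59.7% and 61.1% with Rbbp4 OE and 65.3% and 64.1% with Rbbp7 OE. The H2afx share was 17.8% in both control libraries, 23.8% and 22.8% with Rbbp4 OE and 19.1% and 19.3% with Rbbp7 OE. The 3 groups did not overlap on any of these measures. Ratios within a library do not depend on scaling between libraries, but they can move with a correction made per gene. With the GC and length correction, the log2 fold change in Rbbp4 OE against control went from -0.30 to -0.29 for H2afz. For H2afx it went from 0.23 to 0.05. The part of GC content in the ratio itself was not tested. With 2 libraries against 2, an exact permutation test cannot go below p = 0.333 (two-sided), so none was used.

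H2afy and H2afj encode the other H2A-type variants. H2afy (ENSMUSG00000015937.15, chromosome 13, 56073619 to 56136361, minus strand) encodes macroH2A1, which carries a large non-histone domain and is enriched on the inactive X chromosome. It stood at 206 and 214 TPM in control, 203 and 200 TPM with Rbbp4 OE and 209 and 238 TPM with Rbbp7 OE. Rbbp4 OE libraries lay just below control without overlap, and Rbbp7 OE overlapped with control. Its log2 fold change was -0.06 (limma adjusted p = 0.6) in Rbbp4 OE and 0.08 (limma adjusted p = 0.619) in Rbbp7 OE, and neither passed the test. After median-of-ratios scaling the Rbbp4 OE value was 0.04.

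H2afj (ENSMUSG00000060032.6, chromosome 6, 136808244 to 136810074, plus strand) encodes H2A.J, a variant close to canonical H2A that is known to accumulate in senescent cells. It stood at 199 and 178 TPM in control, 167 and 155 TPM with Rbbp4 OE and 153 and 167 TPM with Rbbp7 OE. Both overexpression groups lay below control without overlap, with log2 changes of -0.23 for Rbbp4 OE (SE 0.080, limma adjusted p = 0.123) and -0.24 for Rbbp7 OE (limma adjusted p = 0.246), and neither passed the test. After median-of-ratios scaling the Rbbp4 OE value was -0.12. Its log2 difference between Rbbp4 OE and Rbbp7 OE was 0.01.

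H3f3a (ENSMUSG00000060743.12, chromosome 1, 180800832 to 180813943, minus strand) and H3f3b (ENSMUSG00000016559.14, chromosome 11, 116021912 to 116027962, minus strand) encode the same protein, H3.3, which HIRA places in active genes and DAXX with ATRX in telomeric and repeat chromatin. Their coding sequences of 411 bases differ at 95 bases (76.9% identity), and all 83 codons that differ are synonymous, so no residue changes. The first 60 coding bases are shown with the 13 differing bases in capitals, since a single protein is read here from distinguishable transcripts.
H3f3a: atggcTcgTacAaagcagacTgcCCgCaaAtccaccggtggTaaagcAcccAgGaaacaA
H3f3b: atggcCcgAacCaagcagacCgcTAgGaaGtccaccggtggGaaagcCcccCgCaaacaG
The longest shared run was 23 bases. H3f3a has 39 near-identical pseudogenes, which together held 0.803% to 1.84% of the summed TPM, and the 3 of H3f3b held 0.104% to 0.556%.

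H3f3a stood at 496 and 540 TPM in control, 578 and 598 TPM with Rbbp4 OE and 575 and 559 TPM with Rbbp7 OE. Both overexpression groups lay above control, with log2 changes of 0.18 for Rbbp4 OE (SE 0.054, limma adjusted p = 0.0807) and 0.13 for Rbbp7 OE (limma adjusted p = 0.329). The value for Rbbp4 OE missed the threshold as deposited but was called after median-of-ratios scaling (0.28, adjusted p = 0.0264) and after the GC and length correction (0.28, adjusted p = 0.0181), the H3f3a transcript being poor in GC (43.2%). H3f3b stood at 490 and 497 TPM in control, 467 and 456 TPM with Rbbp4 OE and 500 and 513 TPM with Rbbp7 OE. Its log2 fold change was -0.10 in Rbbp4 OE (SE 0.041, limma adjusted p = 0.182) and 0.04 in Rbbp7 OE (limma adjusted p = 0.723). After median-of-ratios scaling the Rbbp4 OE value of H3f3b was 0.0039.

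Within the H3.3 pair, H3f3a supplied 50.3% and 52.1% of the transcripts in control, 55.3% and 56.7% with Rbbp4 OE and 53.5% and 52.2% with Rbbp7 OE. The H3f3a share was thus higher in Rbbp4 OE by 4.85 percentage points than in control and by 3.22 points than in Rbbp7 OE, and the Rbbp4 OE libraries overlapped with neither group. Leaving out 1 library at a time, these differences were 3.98 to 5.71 and 2.51 to 3.93 points. The summed H3.3 level was 1011 TPM ± 36.4 (SD, n = 2) in control, 1049 TPM ± 5.93 with Rbbp4 OE and 1074 TPM ± 2.57 with Rbbp7 OE.

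**Figure D3:**
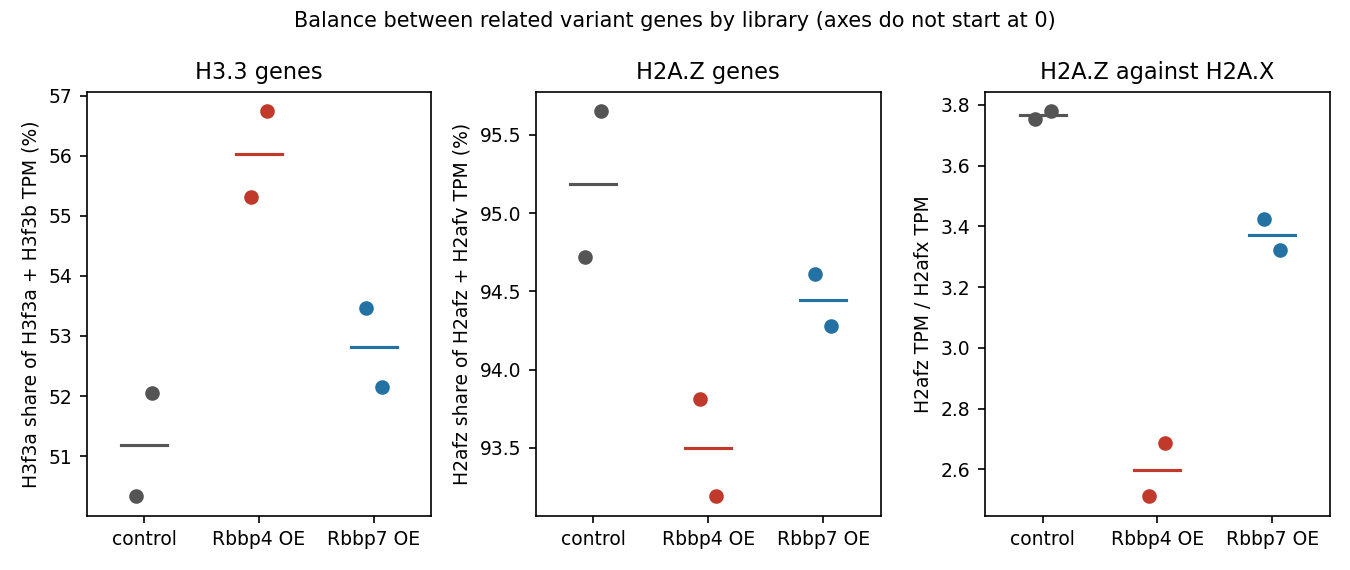
H3f3a share of H3.3 transcripts (%), H2afz share of H2A.Z transcripts (%) and ratio of H2afz to H2afx TPM, by library; points are libraries, lines group means, and the axes do not start at 0. Rbbp4 OE libraries hold the highest H3f3a shares (55.3% and 56.7%) and the lowest H2afz to H2afx ratios (2.51 and 2.69).

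CENP-A replaces H3 in centromeric nucleosomes and marks the site of the kinetochore. Cenpa (ENSMUSG00000029177.9, chromosome 5, 30666777 to 30674830, plus strand) stood at 221 and 211 TPM in control, 209 and 228 TPM with Rbbp4 OE and 196 and 223 TPM with Rbbp7 OE. All 3 groups overlapped. Its log2 fold change was 0.02 (95% confidence interval -0.18 to 0.21, limma adjusted p = 0.922) in Rbbp4 OE and -0.05 (limma adjusted p = 0.841) in Rbbp7 OE.

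Linker histones bind the DNA between nucleosomes. H1f0 (ENSMUSG00000096210.2, chromosome 15, 79028450 to 79030504, plus strand) encodes H1.0, known to accumulate in differentiated and resting cells, and H1fx (ENSMUSG00000044927.6, chromosome 6, 87980421 to 87981637, minus strand) encodes the divergent H1.X. H1f0 stood at 53.6 and 62.1 TPM in control, 58.7 and 60.1 TPM with Rbbp4 OE and 60.2 and 53.2 TPM with Rbbp7 OE, with overlap among all groups and log2 fold changes of 0.04 (limma adjusted p = 0.824) and -0.03 (limma adjusted p = 0.934).

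H1fx stood at 52.4 and 44.6 TPM in control, 75.3 and 66.0 TPM with Rbbp4 OE and 46.1 and 54.9 TPM with Rbbp7 OE. Both Rbbp4 OE libraries were above all others. Its rise in Rbbp4 OE was the largest change among the 10 genes, 1.45-fold (log2 fold change 0.54, SE 0.13, 95% confidence interval 0.23 to 0.84, limma adjusted p = 0.0477), against a log2 fold change of 0.06 in Rbbp7 OE (limma adjusted p = 0.881). Between Rbbp4 OE and Rbbp7 OE the log2 difference of 0.48 did not pass the test (limma adjusted p = 0.151). The H1fx transcript is the richest in GC of the set (71.3%), and after the GC and length correction its log2 fold change was 0.38 and was not called (adjusted p = 0.103). It was also not called with a pseudocount of 5 (limma adjusted p = 0.0515), median-of-ratios scaling (0.0518), no filter (0.114) or a replicate block (0.0788). It stayed called with a pseudocount of 0.1 (limma adjusted p = 0.0437), a filter at 5 TPM (0.026) and mitochondrial and short genes excluded (0.0376). H1fx was above H1f0 in both Rbbp4 OE libraries (1.28- and 1.10-fold), below it in both control libraries (0.977 and 0.718 of H1f0) and on either side of it in Rbbp7 OE (0.766 and 1.03).

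Fold changes moved with the GC content of transcripts across all genes. In Rbbp4 OE against control, the median log2 fold change in 5 bins of GC content with equal numbers of genes, from low to high, was -0.19, -0.16, -0.09, -0.02 and 0.06, and Pearson's r between the log2 fold change and GC content was 0.19 over 14142 genes, which are not independent replicates. The risen genes H2afx and H1fx lie in the highest bin, H2afz (48.4%) in the second, and both H3.3 genes in the lowest. With the correction, H2afz stayed called (-0.29, adjusted p = 0.0203), H3f3a was gained, and H2afx and H1fx were lost. The cause of the relation with GC content was not tested.

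**Figure D4:**
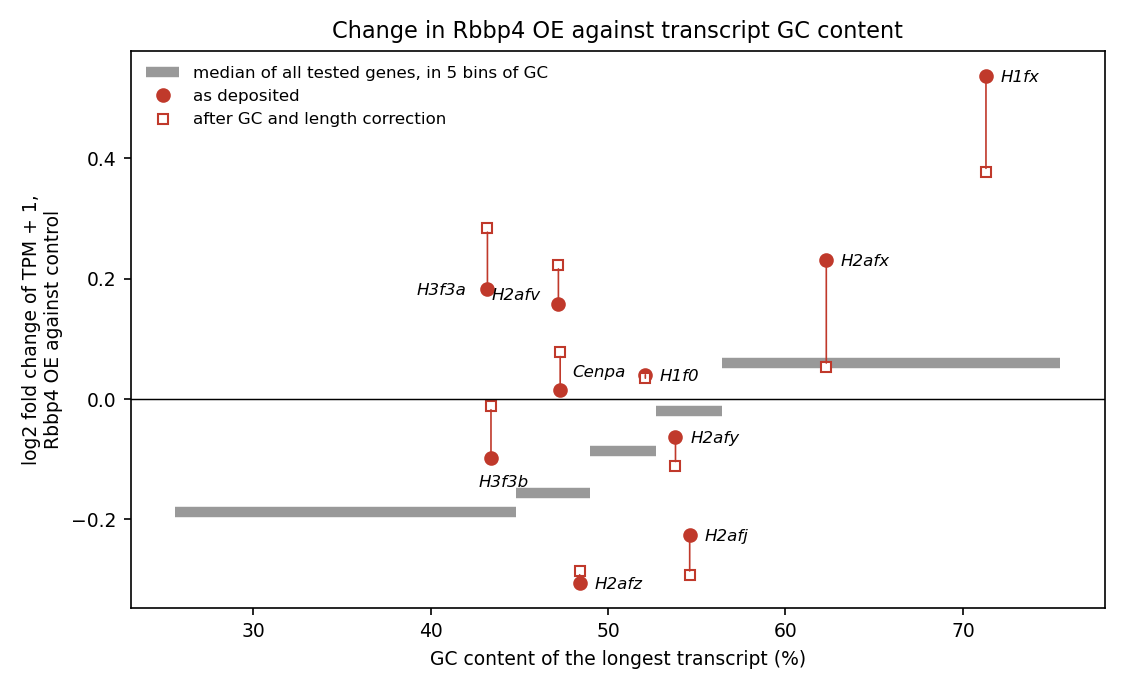
Log2 fold change in Rbbp4 OE against control (vertical axis) of the 10 genes by GC content of a transcript (%), as deposited (filled circles) and after GC and length correction (open squares). The transcript is the one with the longest coding sequence, although the axis label says longest transcript. Grey bars are medians of all tested genes in 5 bins of GC. H1fx (71.3% GC) and H2afx (62.3% GC) move down with the correction, H3f3a (43.2% GC) moves up and H2afz remains near -0.3.

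The 3 calls in Rbbp4 OE depended on the fit, as did the calls over all genes. In a 2-group fit, 0 of the 10 genes and 158 of all 14156 tested genes were called, against 1609 in the main fit. With no filter on low values, 0 of the 10 genes and 709 of 24675 were called. Over all alternatives, leaving out each library included, log2 fold changes were -0.35 to -0.20 for H2afz. They were 0.05 to 0.33 for H2afx and 0.38 to 0.65 for H1fx. The direction of H2afz, H2afx and H1fx was the same under every alternative run.

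Genes that place or remove these variants were then read from lists. Beside the list counts in Rbbp4 OE below, 3.29% of all tested genes were called higher and 8.07% lower. Of 14 genes of H2A.Z exchange, 1 rose and 2 fell in Rbbp4 OE. Vps72, the H2A.Z-binding subunit of the SRCAP and TIP60 complexes, rose from 61.9 and 68.0 TPM to 94.4 and 88.4 TPM (log2 fold change 0.49, limma adjusted p = 0.0173). Anp32e, the chaperone that removes H2A.Z, fell from 117 and 130 TPM to 76.0 and 78.8 TPM (log2 fold change -0.66, limma adjusted p = 0.00869), and Actr6, an actin-related subunit of SRCAP, fell from 17.2 and 17.0 TPM to 12.6 and 11.6 TPM (log2 fold change -0.47, limma adjusted p = 0.043). The list median was -0.04 as deposited and 0.05 after median-of-ratios scaling, against -0.08 and 0.01 over all tested genes.

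Of 9 genes of H2A.X damage signalling, 0 rose and 2 fell in Rbbp4 OE, namely the FACT subunits Supt16 (log2 fold change -0.51, limma adjusted p = 0.0172) and Ssrp1 (-0.26, limma adjusted p = 0.0445), which handle H2A-H2B dimers. The list median was -0.26 as deposited, -0.16 after median-of-ratios scaling and -0.14 after the GC and length correction. Of 8 genes of H3.3 deposition, 0 rose and 1 fell, Dek, a chaperone of H3.3, which went from 138 and 166 TPM in control to 111 and 102 TPM (log2 fold change -0.50, limma adjusted p = 0.0307). The list median was -0.31 as deposited, -0.22 after median-of-ratios scaling and -0.23 after the GC and length correction. Over all tested genes the medians in the same order were -0.08, 0.01 and -0.07. With the filter raised to a mean of 5 TPM, 7 genes of this list were tested, of which 1 was called higher and 4 lower. Under that filter, 533 of all 9035 tested genes were called higher and 1506 lower.

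Of 6 genes of CENP-A deposition, 0 rose and 3 fell in Rbbp4 OE, where 8.07% of all tested genes were called lower. Cenpa itself was not called. Hjurp, the CENP-A chaperone, went from 74.0 and 91.6 TPM in control to 43.4 and 54.4 TPM (log2 fold change -0.75, limma adjusted p = 0.0297). Oip5, a Mis18 subunit that recruits it, fell by 0.64 on the log2 scale (limma adjusted p = 0.017), and Cenpn, which binds CENP-A nucleosomes, fell by 0.41 (limma adjusted p = 0.0344). All 6 fold changes of the list were negative, with a median of -0.40 as deposited and -0.30 after median-of-ratios scaling, where limma called 0 as higher and 2 as lower. In Rbbp7 OE the same 3 genes had log2 fold changes of -0.40, -0.27 and -0.20, none called.

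Cell cycle genes were read because variant levels can follow the cycle. The shares over all tested genes in Rbbp4 OE were again 3.29% called higher and 8.07% lower. Of 14 S phase genes, 0 rose and 5 fell in Rbbp4 OE: Cdt1 (log2 fold change -0.43), Mcm6 (-0.53), Rrm2 (-0.39), Mcm5 (-0.26) and Mcm4 (-0.41), which load or build the replication machinery or supply its nucleotides. Of 13 G2/M genes, the mitotic kinase Plk1 rose (0.40), and the checkpoint kinase Bub1 (-0.58) and cyclin Ccna2 (-0.35) fell. The part of these genes in the changes of H2afz, H2afx and H1fx was not tested. In Rbbp7 OE against control limma called 0 of the 105 genes tested over all lists (18 at an unadjusted p under 0.05, which 15.4% of all tested genes had), and in Rbbp4 OE against Rbbp7 OE likewise 0 (33 at an unadjusted p under 0.05, against 19.0% of all tested genes).

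In Rbbp4 OE, limma called 17 of the 105 genes tested over all lists, where 11.4% of all tested genes were called. At an unadjusted p under 0.05 there were 32, against 29.6% of all tested genes. These calls also moved with the processing. After median-of-ratios scaling, genes called higher and lower numbered 1 and 1 for H2A.Z exchange, 0 and 1 for H2A.X damage signalling, 1 and 1 for H3.3 deposition, 0 and 2 for CENP-A deposition, 0 and 4 for S phase, 2 and 1 for G2/M, and 1 and 0 for other histone variants. After the GC and length correction they numbered 0 and 1, 0 and 1, 1 and 1, 0 and 2, 0 and 5, 3 and 1, and 0 and 0 in the same order. Over all tested genes, 684 were called higher and 738 lower after the scaling, and 415 and 1108 after the correction. In the 2-group fit the list total was 1, where 158 of all tested genes were called.

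Replication-dependent histones were detected only weakly. They summed to 114 to 136 TPM in control, 133 to 141 TPM with Rbbp4 OE and 107 to 134 TPM with Rbbp7 OE over 65 genes, of which 6 to 18 were listed at 0 in a library. Of the 39 tested, limma called 0 in Rbbp4 OE and 0 in Rbbp7 OE, with 1 and 8 at an unadjusted p under 0.05, against 29.6% and 15.4% of all tested genes. The most abundant were Hist1h2bc (15.1 TPM on average) and Hist1h2bk (8.89 TPM). Of 12 other histone variant genes, 2 were tested and limma called 0 (1 at an unadjusted p under 0.05 in Rbbp4 OE and 0 in Rbbp7 OE), namely H2afy2, which encodes macroH2A2 (30.4 TPM on average), and H3f3c (2.12 TPM). H3f3c is annotated as a processed pseudogene with 99% identity to H3f3a, and it is also counted among the 39 pseudogenes of H3f3a above. Poly(A) capture misses mRNAs that end in the stem-loop, so these levels do not compare replication-dependent histones with the replacement variants.

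**Figure D5:**
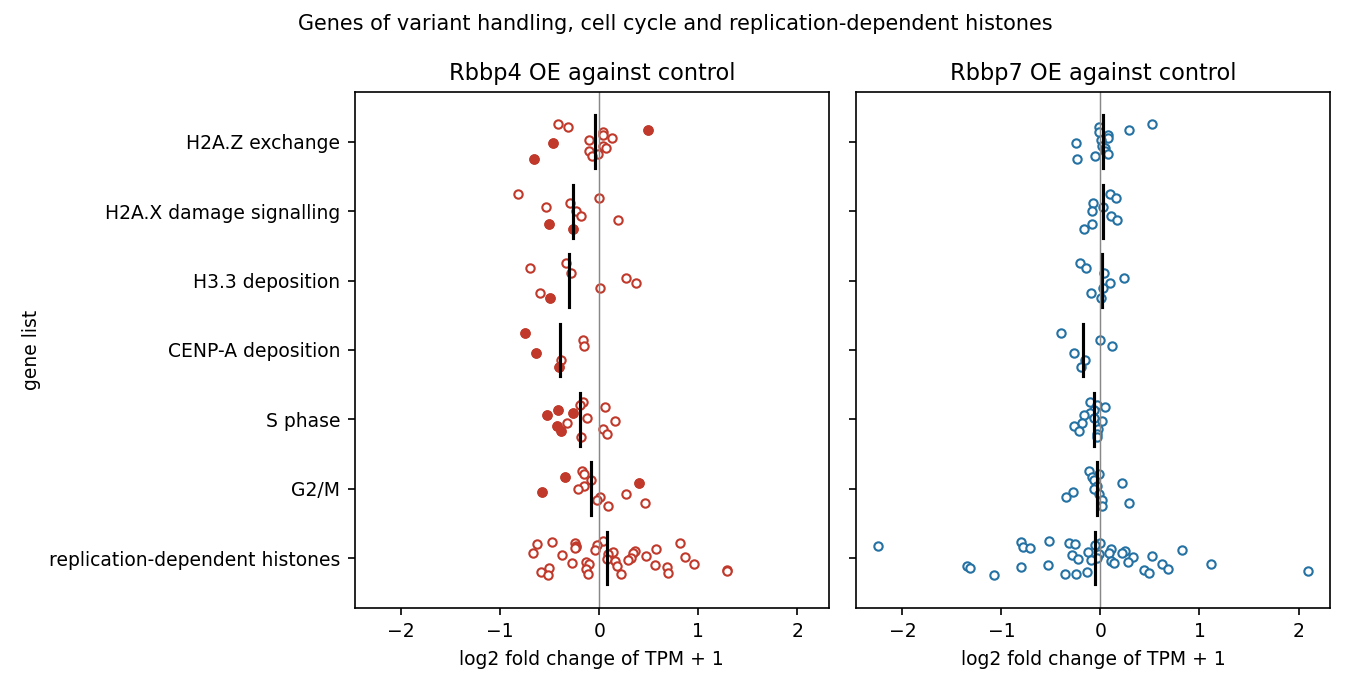
Log2 fold change of TPM + 1 (horizontal axis) for each tested gene of 7 lists, in Rbbp4 OE (left) and Rbbp7 OE (right) against the same controls; filled points have an adjusted p under 0.05 and black lines are list medians. All 6 genes of CENP-A deposition lie below 0 in Rbbp4 OE, and no gene is filled in Rbbp7 OE.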

How the data were processed

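The authors trimmed reads with Trim_galore, aligned them to mm10 with STAR and GENCODE annotation, estimated expression with RSEM, and deposited 1 table of TPM values per library. TPM keeps no sequencing depth, so depth is unknown and no counting interval is given. The study tested counts, but the deposited TPM values are not counts, so limma-trend (limma 3.58.1, R 4.3.3) was run on log2(TPM + 1), which understates changes of low genes, in 1 fit of all 6 libraries without covariates. Genes with a mean of at least 0.5 TPM were tested, and p-values were two-sided and adjusted by Benjamini-Hochberg over all of them. Members and gene lists were chosen with earlier results of these data known.

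Coordinates and sequences came from GENCODE M21 on GRCm38, which is not the study's release. Near-identical copies were searched with blastn 2.17.0 (90% identity over 80% of the copy). Named genes were the 10 members, Rbbp4 and Rbbp7; from each list the called genes, at most the 4 with the smallest p, or else the 2 most abundant; the genes most alike H2afz and H2afx; and pseudogene or antisense copies. Mcm4, Tubb3, Col1a1, Col1a2, Dppa5a and Dcn were named after their values were seen. Tried as alternatives were median-of-ratios scaling, other pseudocounts (0.1 and 5), no filter or one at 5 TPM, a robust trend, 2-group fits, a replicate block, exclusion of mitochondrial and short genes, the study's thresholds, summed pseudogenes and leaving out each library. A GC and length correction was added after seeing the data. The code was tested on simulated data.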

Additional observations from a re-analysis of the deposited data

Results flagged for a closer look

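For H3f3b, both Rbbp4 OE libraries (467 and 456 TPM) lay below, and both Rbbp7 OE libraries (500 and 513 TPM) above, the control libraries (490 and 497 TPM). Neither log2 fold change against control passed the test, -0.10 in Rbbp4 OE (limma adjusted p = 0.182) and 0.04 in Rbbp7 OE (limma adjusted p = 0.723). The log2 difference between Rbbp4 OE and Rbbp7 OE was -0.14 (limma unadjusted p = 0.0167, adjusted p = 0.184), which missed the threshold after adjustment. After median-of-ratios scaling this difference was -0.04 (adjusted p = 0.745), and the values against control were both positive (0.0039 and 0.04).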

How the results depend on the processing

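In Rbbp4 OE against control, 3 of the 10 genes were called, against 2 (H2afx and H3f3a) after median-of-ratios scaling. With no filter 0 were called, where 709 of all 24675 tested genes were. In the 2-group fit and under the study's thresholds 0 were called, where 158 and 73 of all tested genes were. Over all alternatives with a p, the mean of at least 5 TPM and the GC and length correction included, the adjusted p ranged from 0.00843 to 0.141 for H2afz, 0.0228 to 0.543 for H2afx and 0.026 to 0.238 for H1fx. Where a library was left out, its group kept 1 sample, which was taken to vary as the rest do. In no such fit did H2afz, H2afx and H1fx all stay called in Rbbp4 OE against control. This also held without an Rbbp7 OE library, which is not part of that comparison. Over all tested genes, 466 were called higher and 1143 lower, and 684 and 738 after median-of-ratios scaling. Other list genes called in Rbbp4 OE numbered 17, against 7 with no filter, 1 in the 2-group fit, 0 under the study's thresholds and 0 to 20 without 1 library, and in Rbbp7 OE 0, against 1 with a robust trend. With the replicate number as a block, 1 of the 10 genes (H2afz), 11 list genes and 900 of all tested genes were called in Rbbp4 OE. Same-numbered libraries did not deviate together over all tested genes (r = -0.0263, 0.0336 and -0.0308). This cannot tell whether the number marks a culture or batch, since a shared effect could be small or limited to some genes.

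Small fold changes changed sign in some settings, none of them called. After median-of-ratios scaling, H2afy (0.038) and H3f3b (0.0039) turned positive in Rbbp4 OE, and after the GC and length correction H2afx (-0.085) and H1fx (-0.071) turned negative in Rbbp7 OE. H2afj turned negative between Rbbp4 OE and Rbbp7 OE with that correction (-0.025) and with pseudogenes summed (-0.024). Without 1 library, values ran across 0 in Rbbp4 OE for H2afv (-0.018 to 0.33), Cenpa (-0.048 to 0.079) and H1f0 (-0.064 to 0.14). In Rbbp7 OE they did so for H2afv (-0.095 to 0.26), H2afx (-0.025 to 0.059), H2afy (-0.0065 to 0.18), Cenpa (-0.14 to 0.046), H1f0 (-0.13 to 0.076) and H1fx (-0.065 to 0.18). Between Rbbp4 OE and Rbbp7 OE they did so for H2afv (-0.0403 to 0.19), H2afj (-0.052 to 0.072), Cenpa (-0.03039 to 0.15) and H1f0 (-0.0198 to 0.16). The cause was not tested, beyond the smaller number of libraries where 1 was left out.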

Other observations

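Over the 6 libraries, the genes whose log2(TPM + 1) ran most alike with H2afz, among 8572 protein-coding genes with a mean of at least 5 TPM, were BC005624 (Pearson's r = 0.999), Adi1 (r = 0.997) and Spcs1 (r = 0.996). With only 6 libraries in 3 groups, 185 genes reached r = 0.95 with H2afz, so this rank is a description. For H2afx they were Rpl13a (r = 0.994), Wtip (r = 0.990) and Fmr1nb (r = 0.989), with 66 genes at or above r = 0.95. Genes on the opposite strand that overlap a replacement variant gene had at most 1.1 TPM in any library.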
